A study of Mus musculus with 140 samples.

Results

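Arterioles and post-capillary venules cut from the kidney cortex of the same healthy mice were compared. The 8 libraries are the arteriole and the venule library of each of 4 healthy control mice at 0 h, chosen by their labels, out of 140 libraries from 28 mice in the whole series. All mice were male wild-type C57BL6/OlaHsd animals, and the 4 used here had neither surgery nor sepsis. The series as a whole compared healthy mice with mice that had cecal ligation and puncture (CLP, an operation that lets gut bacteria into the abdomen) or sham surgery, 4 mice each at 4, 24 and 72 h. Each mouse gave 5 Lexogen QuantSeq libraries, 1 of whole kidney and 4 of laser microdissected glomeruli, arterioles, venules and peritubular capillaries. Such libraries read the 3′ end of a transcript rather than its whole length. A microdissected piece holds every cell of the vessel wall and whatever tissue adjoins it. The number of pieces pooled per library is not given in the sources used here.

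An arteriole is a resistance vessel: smooth muscle cells circle its endothelium, and their shortening sets the flow and pressure that reach the glomerulus. Contraction starts when calcium activates the kinase that phosphorylates the regulatory light chain of smooth muscle myosin, and nitric oxide from the endothelium opposes it. A post-capillary venule collects blood from the peritubular capillaries, has endothelium with pericytes but little or no muscle, and is the usual place where leukocytes leave the blood. In the cortex both vessels run between tubules.

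The 8 libraries held between 4.64 M and 11.4 M counts, with 11838 ± 516 detected genes in arterioles and 12816 ± 734 in venules (SD, n = 4 mice each). The counts were unevenly spread in arterioles, where the median count of a tested gene ranged from 8 to 168 between libraries, against 99 to 167 in venules. Mitochondrially encoded transcripts made up 7.06% ± 1.19 of the counts in arterioles and 13.7% ± 0.918 in venules and were the higher in venules in 4 of 4 mice (the exact paired permutation test gave the smallest p that 4 mice allow, which lies above 0.05). Haemoglobin transcripts, which come from red blood cells, made up 2.38% ± 1.28 and 3.30% ± 1.29 of the counts. They were likewise the higher in venules in 4 of 4 mice at the same smallest p. These percentages are shares of raw counts. After the scaling used below, summed erythrocyte and platelet genes, haemoglobin among them, were the higher in arterioles in 2 of 4 mice. Nothing in the labels names a batch. Values per gene are CPM, the library's counts scaled to a common total. They are compared within a gene and not between genes. The p-values measure the spread between these mice only.

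Of 12179 genes with enough counts, 512 differed between arterioles and venules at an adjusted p under 0.05 (edgeR quasi-likelihood test with the mouse as a block, Benjamini-Hochberg over all genes tested), and these are the genes described here as called. The 512 are 4.2% of the genes tested: 303 (2.49%) were higher in arterioles and 209 (1.72%) higher in venules. Without any overlap between the 4 arteriole and the 4 venule libraries there were 1398 genes, or 11.5% of those tested. The number called fell to 267 without mouse 1, 284 without mouse 2, 307 without mouse 3 and 423 without mouse 4. A fit of the 8 arteriole and venule libraries alone called 414, of which 130 were higher in venules. Without the mouse block that fit called 314, of which 68 were higher in venules. How the libraries are scaled shifts the split. The median difference over all genes tested was -0.26 on the log2 scale here, -0.05 with DESeq2's size factors and -0.55 with library totals alone. Of the called genes 59.2% were higher in arterioles here, 70.8% with DESeq2's size factors and 41.3% with library totals. A difference smaller than about that shift therefore depends on the scaling. DESeq2's own test, with the size factors that gave 70.8% in edgeR, put 46.3% of its calls in arterioles, so the choice of test moves the split as well.

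**Figure D1:**
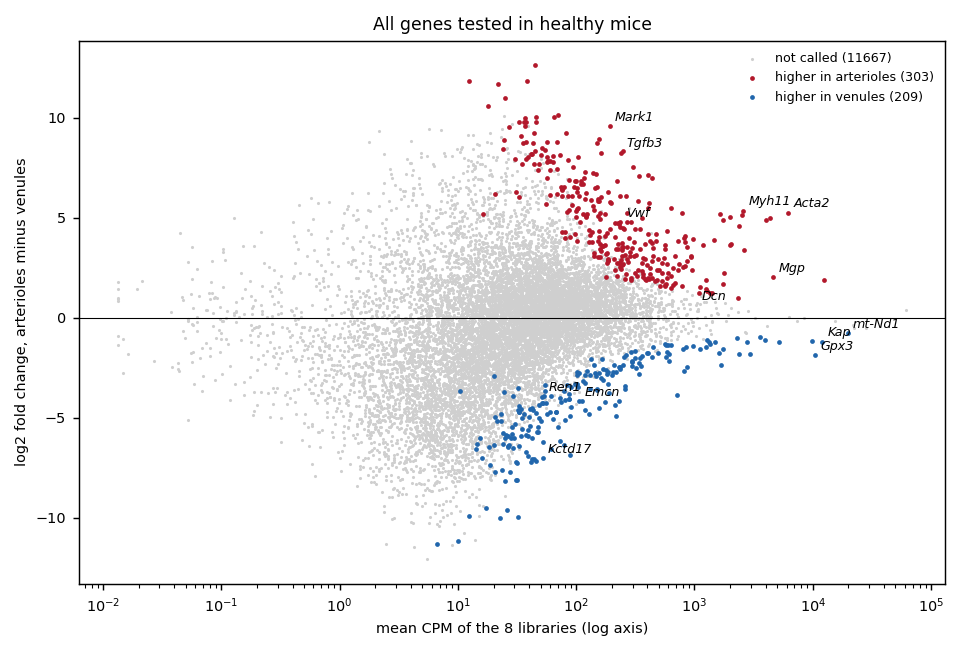
Each point is a gene: the x axis is its mean CPM over the 8 healthy libraries on a log axis, and the y axis is the log2 fold change of arterioles minus venules. Red points are the 303 genes called higher in arterioles, blue points the 209 called higher in venules and grey points the rest of the 12179 genes, and the smooth muscle genes Acta2 and Myh11 stand at the upper right with changes of 5.24 and 5.36.

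The contractile apparatus of smooth muscle set the arterioles apart. Of the 22 genes on the smooth muscle list 21 were tested, 17 were called higher in arterioles and none in venules, and the list's median was 4.89 on the log2 scale against -0.26 over all genes. Summed over the list, arterioles held 33680 to 83010 CPM and venules 2156 to 3183 CPM. Between 13 and 17 members were called when any 1 mouse was left out. In bulk pieces such as these, fewer cells of a type and less RNA per cell cannot be told apart.

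Acta2 (ENSMUSG00000035783, chromosome 19, bases 34241090 to 34255590, minus strand) encodes the actin of smooth muscle filaments. It was at 12340, 19950, 8612 and 7383 CPM in the arterioles of mice 1 to 4 and at 238, 498, 234 and 285 CPM in their venules. Every arteriole library lay far above every venule library, a 37.9-fold difference (log2 5.24 ± 0.32 SE, adjusted p = 1.83e-20). Myh11 (ENSMUSG00000018830, chromosome 16, bases 14194535 to 14291372, minus strand), the heavy chain of smooth muscle myosin, was at 6079, 6150, 4545 and 3454 CPM in arterioles and 136, 59.6, 78.2 and 217 CPM in venules. The groups again did not overlap, and the difference was 41.1-fold (log2 5.36 ± 0.55, adjusted p = 3.6e-08). Myl9, the regulatory light chain on which contraction turns, stood at 11670, 10480, 6100 and 5150 CPM in arterioles and 289, 231, 258 and 273 CPM in venules. As for Myh11, mice 1 and 2 were the higher among the arterioles, and no library overlapped with the other vessel (log2 4.98 ± 0.36, adjusted p = 4.68e-17).

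Genes that act on these filaments went with them. Mylk, the light chain kinase, was at 5867, 6078, 3528 and 3587 CPM in arterioles and 490, 539, 291 and 477 CPM in venules, 10.6-fold apart (adjusted p = 1.42e-11). Flna, filamin A, which cross-links actin, was at 11170, 11530, 4072 and 4177 CPM against 144, 377, 270 and 198 CPM, 29.6-fold apart (adjusted p = 5.07e-16). Cald1 (caldesmon), Cnn1 (calponin), Tpm1 and Tpm2 (tropomyosins) were all higher in arterioles by 3.64 to 5.21 on the log2 scale, and no alternative lost their calls. Pln, the calcium pump inhibitor phospholamban, was higher by 6.06 (adjusted p = 0.00939), a call lost without mouse 2 or 3 (adjusted p up to 0.154). Myocd, the coactivator of serum response factor that switches on many of these genes, was at 66.9, 14.2, 24.8 and 110 CPM in arterioles, and its 4 venule libraries together held 2 counts. The ratio of its pooled counts was 758 with a 95% counting interval of 209 to 6263. Its call (adjusted p = 0.0285) was lost whichever mouse was left out, with adjusted p up to 0.129. Lmod1 (4.25 ± 1.27, adjusted p = 0.0738) and Des (1.21 ± 1.04, 0.603) were tested and did not pass.

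**Figure D2:**
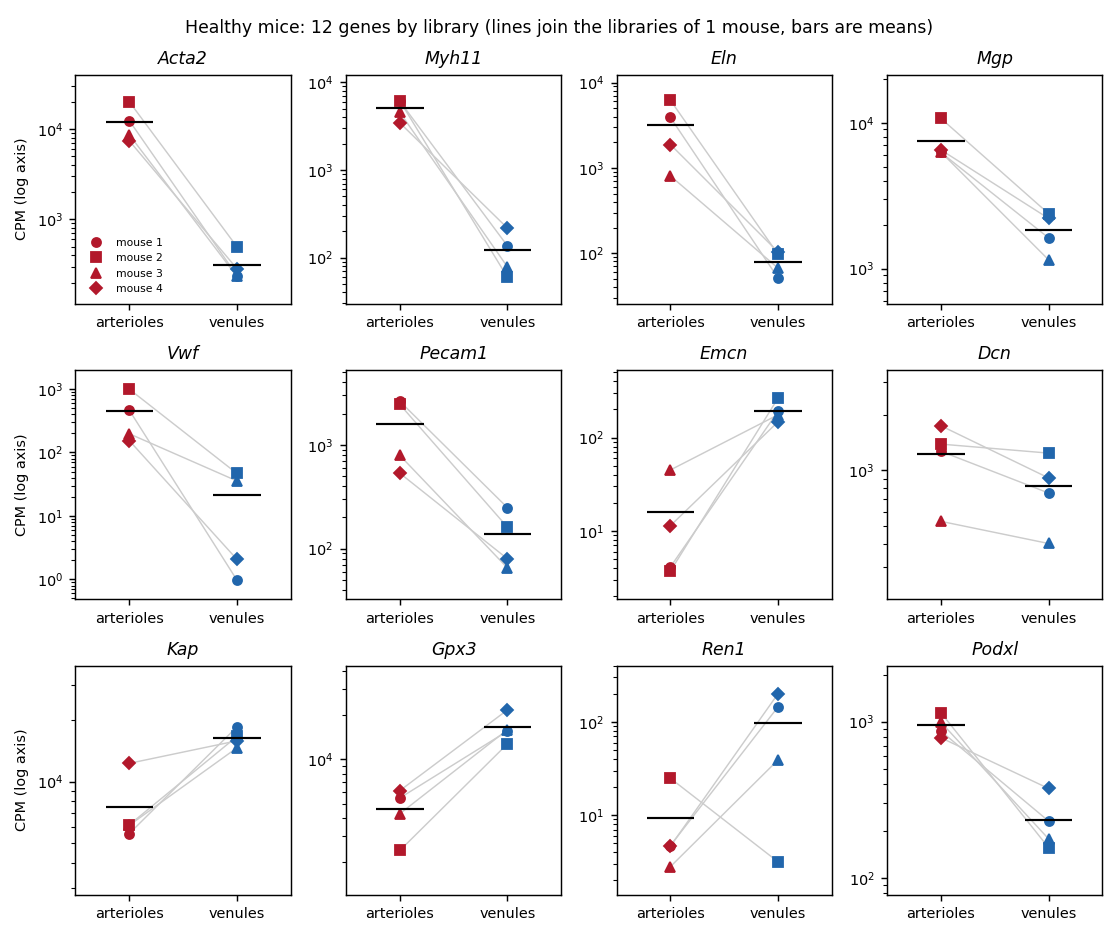
Each panel is 1 gene, with CPM on a log axis for the 4 arteriole (red) and 4 venule (blue) libraries of healthy mice; symbols mark the mouse, grey lines join libraries of 1 mouse and black bars are means. Acta2, Myh11, Eln, Mgp, Vwf, Pecam1 and Podxl lie higher in all 4 arteriole libraries, Emcn, Kap and Gpx3 higher in all 4 venule libraries, and the groups overlap for Dcn and Ren1.

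The CArG box, a run of A and T letters between CC and GG, is the site that serum response factor is known to bind in smooth muscle promoters. The promoters of Acta2 and Myl9 are shown because both genes carry the result above and hold boxes. Most called smooth muscle genes with a promoter sequence held none in the short windows searched. The window of Acta2 ran from base 34255324 to 34255623 of chromosome 19. Boxes outside the windows were not looked for. Sequences are from RefSeq promoter windows on GRCm38.p6, 5′ to 3′ on each gene's own strand, with boxes in capitals and positions counted upstream from the gene start in that table. Around each of its boxes Acta2 reads, at chr19:34255438-34255467 and chr19:34255388-34255417 on the minus strand:
Acta2, 94 to 65 bases upstream: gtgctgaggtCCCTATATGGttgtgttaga
Acta2, 44 to 15 bases upstream: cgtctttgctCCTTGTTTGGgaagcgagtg
Myl9 reads, at chr2:156775294-156775418 on the plus strand:
Myl9, 170 to 46 bases upstream: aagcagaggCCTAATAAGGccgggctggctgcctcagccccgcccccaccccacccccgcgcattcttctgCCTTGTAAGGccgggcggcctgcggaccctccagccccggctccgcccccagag
The upstream box of Myl9 fits the pattern exactly, and the other 3 boxes depart from it by 1 letter. An exact box was found in the promoter of 1.81% of 27025 genes, read on both strands, and a box with at most 1 letter off in 11.3%. Among genes higher in arterioles 229 had a promoter in the table, of which 9 (3.93%) held an exact box and 36 (15.7%) one with at most 1 letter off. Among genes higher in venules the counts were 4 (2.55%) and 17 (10.8%) of 157. Of the 17 smooth muscle genes called higher in arterioles 14 had a promoter sequence. An exact box was in 1 of these (7.14%) and one with at most 1 letter off in 3 (21.4%), Acta2 and Myl9 among them. GENCODE M21 starts Acta2 further upstream, so both Acta2 stretches fall inside an untranslated exon of that annotation. A match is a description of letters and not evidence that a factor binds.

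Channels and receptors that set smooth muscle tone were called less evenly. Of 29 on the list 25 were tested, 9 were called higher in arterioles and none in venules, with a median of 2.48. That count was 3, 2, 3 and 6 when mouse 1, 2, 3 or 4 was left out. Rgs5, which shortens G protein signals in mural cells, was at 5804, 6258, 3662 and 3816 CPM in arterioles and 113, 152, 92.6 and 227 CPM in venules, 35.5-fold apart with no overlap (adjusted p = 5.15e-15). P2rx1, the ATP-gated channel through which renal arterioles constrict, was at 140, 399, 206 and 84.2 CPM against at most 1.08 CPM (log2 8.01 ± 1.59, adjusted p = 0.000505). Its venule libraries were all close to the limit that a handful of counts sets. Kcnmb1, a subunit of the calcium-activated potassium channel that limits constriction, passed at 0.0402 and was lost under 8 alternatives (up to 0.326), among them leaving out mouse 1, 2 or 4. Prkg1, the kinase that carries the nitric oxide signal inside smooth muscle, passed at 0.0104 and was lost without mouse 1, 2 or 3 (up to 0.121).

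Genes of pericytes, the mural cells of capillaries and venules, were divided. On the pericyte list 9 of 12 were tested and 4 were called, all higher in arterioles (Rgs5, Cspg4, Notch3 and Mcam), and the other 5 did not pass. Rgs5 is also on the list of channels and receptors above. Among the 5 were Pdgfrb, at a mean of 97 CPM in arterioles and 93.2 CPM in venules, Abcc9 (32.6 and 9.7 CPM) and Ndufa4l2 (4.16 and 17.1 CPM). On the arteriole side were 6 of the 9, the median was 3.51, and 2 or 3 were called with any 1 mouse left out. Cspg4, the NG2 proteoglycan of mural cells, was at 610, 1279, 335 and 169 CPM in arterioles and 1.30, 2.69, 9.33 and 6.07 CPM in venules. All 4 mice differed widely in arterioles, yet the lowest lay well above the highest venule value (186-fold, adjusted p = 2.23e-07). Notch3, the receptor through which endothelium matures mural cells, was at 761, 678, 398 and 339 CPM against 33.1, 113, 0.718 and 47.0 CPM. It passed at an adjusted p of 0.0352, and the p rose to as much as 0.142 when mouse 1, 2 or 4 was left out.

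Elastic fibres and basement membrane formed the next group. Of 36 matrix genes 34 were tested and 13 were called higher in arterioles, none in venules, with a median of 2.32. Eln, elastin, was at 3904, 6208, 806 and 1879 CPM in arterioles and 51.2, 97.2, 66.9 and 103 CPM in venules. The groups stood apart in each mouse (log2 5.17 ± 0.85, adjusted p = 0.00181), although the call was lost without mouse 2 (adjusted p = 0.0573). Mgp, matrix Gla protein, which keeps vessel walls from calcifying, was at 6257, 10720, 6295 and 6517 CPM in arterioles and 1623, 2379, 1147 and 2207 CPM in venules. It was thus read abundantly in both vessels, and the difference was 4.06-fold (log2 2.02 ± 0.30, adjusted p = 2.27e-06). Sparcl1 (4.58 ± 0.49), the perlecan gene Hspg2 (3.82 ± 0.65), the elastic fibre gene Ltbp4 (3.66 ± 0.50) and the proteoglycan gene Bgn (2.25 ± 0.38) were called higher in arterioles in every alternative run.

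Among transforming growth factor beta and bone morphogenetic protein genes 5 of 18 tested were called, all higher in arterioles, namely Tgfb3, Tgfb2, Id1, Id3 and the receptor gene Acvrl1, with a median of 1.77. Without mouse 1, 2 or 3 the list held 3 calls, and Id3 (3.10 ± 0.57) and Tgfb3 kept their calls throughout. Tgfb3, a ligand of this family, was at 667, 695, 236 and 298 CPM in arterioles and 4.32, 0.937, 0.179 and 1.42 CPM in venules, 305-fold apart (adjusted p = 7.45e-07). Of the Notch list 15 were tested and Notch3, Notch4 and Hey2 were called higher in arterioles. Beside both lists stands a share of 2.49% of all genes called in that direction. With 1 mouse left out the list held 1 or 2 calls, and without mouse 2 Notch3, Notch4 and Hey2 were each lost.

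Endothelium was present in both vessels, and its RNA was read more in arterioles. Of the genes that mark endothelium in general 17 of 18 were tested, 6 were called higher in arterioles and 1, Emcn, higher in venules, with a median of 1.86. The summed level was 4590 to 6724 CPM in arterioles and 1202 to 1724 CPM in venules. Pecam1, the adhesion molecule at endothelial junctions, was at 2620, 2443, 789 and 532 CPM in arterioles and 248, 161, 65.1 and 79.7 CPM in venules. Mice 1 and 2 were the higher in both vessels, and within each mouse arterioles led (11.5-fold, adjusted p = 7.52e-07). Cldn5, the tight junction claudin of endothelium, was at 162, 366, 570 and 415 CPM against 6.38, 1.87, 16.3 and 2.84 CPM (54.9-fold, adjusted p = 6.83e-05). Nos3, the endothelial nitric oxide synthase, was at 507, 443, 423 and 413 CPM in arterioles and at 10.9, 24.7, 1.26 and 51.9 CPM in venules (23.5-fold, adjusted p = 0.00273). The last bases of Nos3 overlap an exon of Atg9b on the other strand. Reads of this pair cannot be told apart unless strand was used in counting, which is not given.

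Most genes that mark arterial endothelium had higher values in arterioles. Of 18 on the list 17 were tested, 16 were on the arteriole side, 7 were called higher in arterioles and none in venules, with a median of 4.18. The remaining member, Alpl, an alkaline phosphatase named after its values were seen, was at 27.7, 3.55, 109 and 38.6 CPM in arterioles and 199, 281, 188 and 136 CPM in venules. Its groups did not overlap, it missed the threshold in edgeR (log2 -2.31 ± 0.80, adjusted p = 0.0854), and DESeq2 called it higher in venules. On the list 4, 4, 5 and 7 were called without mouse 1, 2, 3 and 4. Sema3g, an arterial semaphorin, was at 453, 1074, 887 and 642 CPM in arterioles and 73.3, 30.6, 4.48 and 88 CPM in venules (18.1-fold, adjusted p = 1.02e-06). Gja4, the gap junction protein connexin 37, reached 547 to 1238 CPM in arterioles and 1.43 to 74.0 CPM in venules (adjusted p = 0.0395; 0.154 at most over the alternatives, and lost without mouse 1). Hey2, a Notch target of arterial cells, was at 26.1, 126, 103 and 39.1 CPM in arterioles, and the venules together held 2 counts (ratio of pooled counts 1251, 95% counting interval 346 to 10340). Bmx, a tyrosine kinase of arterial endothelium, was at 54.4, 188, 28.9 and 25 CPM in arterioles, also against 2 venule counts (ratio 1117, interval 309 to 9228). Both passed, at 0.0191 for Hey2 and 0.015 for Bmx, but both were lost without mouse 1 and without mouse 2, and Hey2 also without mouse 3, with adjusted p up to 0.127 and 0.162.

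The label of the venules was checked against venous and capillary endothelial genes, and these were divided. Of 18 on the list 14 were tested: Emcn and Cd36 were called higher in venules, Vwf and Bgn higher in arterioles, and the median was 0.30. Over all genes 2.49% were called higher in arterioles and 1.72% higher in venules. Emcn (ENSMUSG00000054690, chromosome 3, bases 137341067 to 137432185, plus strand), the sialomucin endomucin of venous and capillary endothelium, was at 4.11, 3.70, 44.9 and 11.4 CPM in arterioles and 191, 264, 175 and 147 CPM in venules. The venules were higher in every mouse (18.2-fold, log2 -4.18 ± 0.74, adjusted p = 8.84e-05), though in the 8 libraries alone without the mouse block and with limma-voom the call was lost, with adjusted p up to 0.0726. Cd36, a fatty acid receptor of capillary endothelium, was at 3.70, 2.78, 2.37 and 5.17 CPM against 37.7, 86.4, 68.2 and 129 CPM (adjusted p = 0.00264, and up to 0.247 when only the 8 libraries were fitted). Plvap, which forms the diaphragms of fenestrated and venular endothelium, was at 89.1, 1.54, 30.8 and 73.2 CPM in arterioles and 206, 230, 231 and 331 CPM in venules. Its groups did not overlap, but it missed the threshold (log2 -2.64 ± 0.94, adjusted p = 0.0946). The capillary libraries of the same mice averaged 202 CPM of Emcn and 292 CPM of Cd36, and the venules 194 and 80.4 CPM. Glomeruli averaged 648 CPM of Emcn and 14.4 CPM of Cd36. Plvap averaged 63.2 CPM in capillaries, 77 CPM in glomeruli and 250 CPM in venules. These levels are a description without a test. Emcn and Cd36 were called in no group of mice with sham surgery or CLP.

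Other defining genes of venules were absent or no higher there. Ackr1, the chemokine receptor that marks post-capillary venules, had no count in any of the 8 libraries, which allows up to about 0.4 CPM in a venule library. Nr2f2, the transcription factor of venous identity, was at 523, 324, 121 and 294 CPM in arterioles and 268, 225, 198 and 165 CPM in venules, with overlapping groups (log2 0.40 ± 0.59, adjusted p = 0.805). Vwf (ENSMUSG00000001930, chromosome 6, bases 125546774 to 125686679, plus strand), the clotting protein stored in endothelium, was at 462, 993, 197 and 154 CPM in arterioles and 0.973, 46.6, 35.5 and 2.07 CPM in venules. Arterioles thus held 27.6-fold more (log2 4.79 ± 1.03, adjusted p = 0.00159; 0.0589 without mouse 2). In the other dissected compartments of these mice the capillaries averaged 1.14 CPM of Vwf and the glomeruli 0.608 CPM.

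Fibroblast genes were read in both vessels. Dcn (ENSMUSG00000019929, chromosome 10, bases 97479609 to 97518143, plus strand), the collagen-binding decorin of fibroblasts, was at 1269, 1388, 531 and 1743 CPM in arterioles and 755, 1241, 403 and 911 CPM in venules. The groups overlapped (log2 0.62 ± 0.44, adjusted p = 0.501), and both stood above the capillaries (39.3 ± 42.7 CPM, SD, n = 4) and glomeruli (32.6 ± 17 CPM), a description without a test. Col1a1, a chain of fibrillar collagen, was at 787, 1685, 548 and 730 CPM against 371, 483, 161 and 449 CPM and did not pass either (1.33 ± 0.55, adjusted p = 0.17). Of the 16 fibroblast genes tested of 17, Pi16 and Serpinf1 were called higher in arterioles and none in venules, with a median of 0.98, and without mouse 2 or 3 none was called. With 2.49% of all genes called higher in arterioles, so few calls say little about the list.

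**Figure D3:**
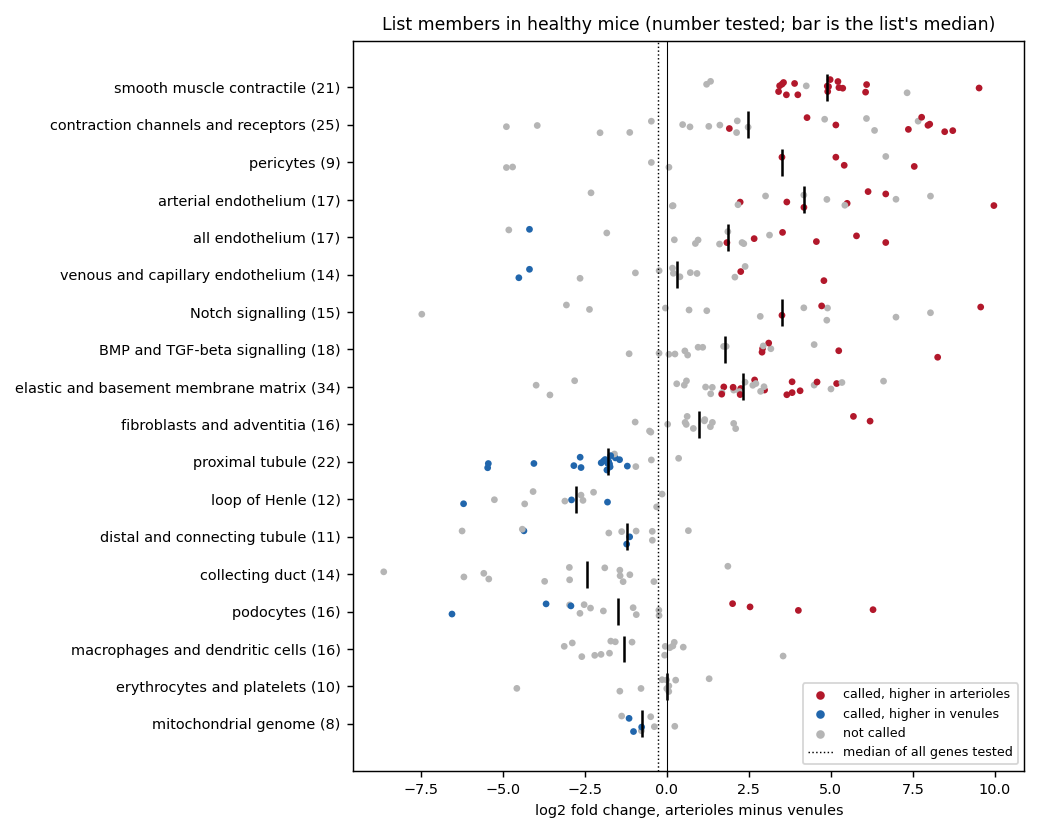
Each line is a gene list with the number of members tested; points are members placed by their log2 fold change of arterioles minus venules, red or blue where called higher in arterioles or venules, and grey where not called. Black bars are list medians and the dotted line is the median of all genes tested at -0.26: the smooth muscle bar stands at 4.89, the arterial endothelium bar at 4.18 and the proximal tubule bar at -1.78.

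Tubule genes made up the largest group of venule-high genes among the lists. Of 22 proximal tubule genes all were tested, 18 were called higher in venules and none in arterioles, with a median of -1.78. The list held 9, 12, 11 and 15 calls without mouse 1, 2, 3 and 4, and 12 with DESeq2's size factors. Kap (ENSMUSG00000032758, chromosome 6, bases 133849851 to 133853762, minus strand), the androgen-regulated protein of the proximal tubule, was at 5558, 6133, 6104 and 12300 CPM in arterioles and 18590, 16670, 14660 and 15870 CPM in venules. All venule libraries lay above all arteriole libraries, by 2.30-fold on average (log2 -1.2 ± 0.18, adjusted p = 4.83e-06), and DESeq2's test gave an adjusted p of 0.102. Gpx3, the plasma glutathione peroxidase made by these cells, was at 5471, 2404, 4276 and 6136 CPM against 15600, 12770, 15940 and 21730 CPM, 3.68-fold apart (adjusted p = 8.46e-09; 0.587 with limma-voom). Slc34a1, the phosphate carrier, was at 786, 1726, 1409 and 1325 CPM against 5251, 3912, 3976 and 5123 CPM, 3.47-fold apart (adjusted p = 9e-06).

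The distal nephron leaned the same way with fewer calls. For the loop of Henle 3 of 12 tested (Umod, Egf and Kcnj1, the last lost without mouse 1, 2 or 3) and for the distal and connecting tubule 3 of 11 tested were called higher in venules, with medians of -2.76 and -1.22. The loop list held 7 calls without mouse 4 and 2 without mouse 1 or mouse 2, and the distal list 1 without mouse 3, 2 without mouse 1 and 1 with DESeq2's size factors. Of 14 collecting duct genes edgeR called none, 5 were under 0.05 before adjustment, and 4 were called by DESeq2, all with venules higher. Umod, the urinary protein of the thick ascending limb, was at 275, 274, 154 and 329 CPM in arterioles and 1031, 692, 315 and 1756 CPM in venules, where only the lowest venule library fell inside the arteriole range (adjusted p = 0.00239). Slc12a3, the thiazide-sensitive salt carrier, was at 5.34, 6.94, 126 and 6.37 CPM against 362, 529, 208 and 446 CPM (20.4-fold, adjusted p = 0.000316).

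Tubule genes thus moved with the vessel groups as a whole. Summed proximal tubule genes gave 14450 to 26630 CPM in arterioles and 48460 to 60120 CPM in venules. No gene of the list was at 0 in any arteriole library, and the capillary libraries of the same mice averaged 68600 CPM of Kap. Each value is relative to a scaled library total. A larger share of tubule RNA in venules can therefore lower the values of other genes where the scaling does not offset it. Its part in the vessel differences was not tested.

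**Figure D4:**
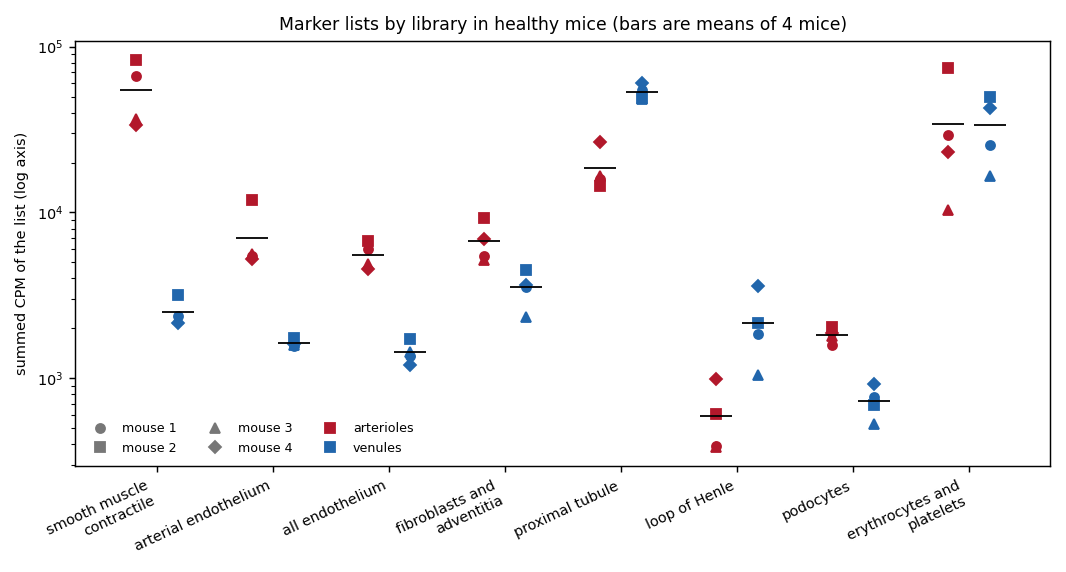
Summed CPM of 8 marker lists on a log axis in each healthy library, arterioles in red and venules in blue, with symbols for mice and bars for means. The smooth muscle sums do not overlap (33680 to 83010 against 2156 to 3183), the proximal tubule sums lie the other way round (14450 to 26630 against 48460 to 60120), and those of erythrocytes and platelets overlap.

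Mitochondrially encoded transcripts were also higher in venules. Of 13 such genes 8 were tested and mt-Nd1, mt-Nd2 and mt-Nd5 were called, all in that direction, with a median of -0.77. Without mouse 1 none was called and without mouse 3 only 1. mt-Nd1, a subunit of respiratory complex I, was at 11590, 18300, 13840 and 14820 CPM in arterioles and 22900, 23170, 21860 and 31080 CPM in venules. Its groups did not overlap, and at log2 -0.77 ± 0.18 (adjusted p = 0.0063) the difference is near the size of the scaling shift: with DESeq2's size factors it did not pass, and the adjusted p reached 0.414 over the alternatives.

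Podocyte genes were split. Of 16, all tested, Podxl, Synpo, Nes and Plce1 were called higher in arterioles, and Magi2 and Dach1 were among those called higher in venules. Magi2 and Dach1 were each lost whichever mouse was left out (adjusted p up to 0.671 and 0.198), and Plce1 without mouse 3 or 4 (up to 0.0946). Podxl, podocalyxin, which vascular endothelium also makes, was at 869, 1140, 990 and 788 CPM in arterioles and 231, 157, 178 and 374 CPM in venules (4.01-fold, adjusted p = 0.000104). Synpo, an actin-binding protein that smooth muscle also contains, was 5.80-fold higher in arterioles (adjusted p = 0.000407). The list's median was -1.48 while its summed level was the higher in arterioles, at 1592 to 2043 CPM against 529 to 925 CPM.

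Renin was low in arterioles. Ren1 (chromosome 1, bases 133350510 to 133360325, plus strand), the enzyme that juxtaglomerular cells of the afferent arteriole release, was at 4.72, 24.8, 2.81 and 4.65 CPM in arterioles and 145, 3.16, 39.1 and 200 CPM in venules. The venule library was the higher in 3 of 4 mice and the groups overlapped. It passed at an adjusted p of 0.0408 (log2 -3.91 ± 1.06), but 6 alternatives lost the call, leaving out mouse 1 or mouse 4 among them, with values up to 0.484. The glomerular libraries of the same mice averaged 1051 CPM of Ren1. Of the 9 tested genes on the renin and angiotensin list Ren1 was the only call, where 4.2% of all genes were called in either direction.

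The study's title names coagulation and inflammation, and clotting genes were therefore listed by role. Of 12 procoagulant genes tested Vwf was the only call, and of 12 anticoagulant genes tested Ptgis and Serpine2 were called higher in arterioles and Proc higher in venules, where 4.2% of all genes were called in either direction. Of 8 fibrinolysis genes tested Serpinf2, the plasmin inhibitor, was called higher in venules (log2 -3.46, adjusted p = 0.00486), a call lost without mouse 4, in both fits of the 8 libraries and with limma-voom (up to 0.176). Ptgis, which makes prostacyclin, a vasodilator that keeps platelets from clumping, was at 723, 1189, 459 and 321 CPM in arterioles and 1.95, 28.3, 1.97 and 1.29 CPM in venules (136-fold, adjusted p = 9.75e-08). Its 3′ end overlaps a gene on the other strand. Serpine2, a thrombin inhibitor, was at 280, 341, 290 and 183 CPM against 40.2, 25.8, 45.9 and 24.8 CPM (8.14-fold, adjusted p = 0.00485). Proc, which encodes the zymogen protein C, was at 2.67, 2.78, 7.23 and 62.8 CPM in arterioles and 315, 142, 213 and 274 CPM in venules. It was 27.8-fold higher in venules (adjusted p = 6.48e-05, and 0.0527 in the 8 libraries without the mouse block). The capillary libraries of the same mice averaged 458 CPM of Proc and 516 CPM of Serpinf2, above the venule averages of 236 and 161 CPM. This is a description without a test. Thbd, the thrombomodulin that activates protein C, did not pass (1.2 ± 0.94, adjusted p = 0.557).

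Among 21 nitric oxide, endothelin and prostanoid genes tested Ptgis and Nos3 were called higher in arterioles and Ddah1 higher in venules. With 4.2% of all genes called in either direction, so few calls say little about the list as a whole. Ddah1, which breaks down an inhibitor of nitric oxide synthase, was at 139, 6.94, 230 and 131 CPM in arterioles and 534, 578, 499 and 686 CPM in venules (5.32-fold, adjusted p = 0.00431; up to 0.0628 with limma-voom and in the 8 libraries without the mouse block, where the call was lost). The arteriole library of mouse 2 was the lowest by far. Klf2, the transcription factor that blood flow induces in endothelium, was at 342, 383, 504 and 201 CPM in arterioles and 59, 78.9, 79.6 and 47.1 CPM in venules. The groups did not overlap, yet its adjusted p of 0.0499 lay at the threshold and reached 0.238 when a mouse was left out or a setting changed.

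The largest called differences rested on genes nearly unread in the other vessel. Mark1, a kinase that acts on microtubules, was at 731, 559, 109 and 130 CPM in arterioles and 0.540, 0.585, 0 and 0.388 CPM in venules (log2 9.59 ± 1.4, adjusted p = 1.29e-06). Dhh, the ligand desert hedgehog, was at 1.03, 178, 181 and 202 CPM in arterioles and at most 0.216 CPM in venules (log2 10.12 ± 2.25, adjusted p = 0.00247). The arteriole library of mouse 1 thus held almost none of it. In the other direction Kctd17, an adaptor of ubiquitin ligases, was at 0.821, 0.926, 0.863 and 0.344 CPM in arterioles and 40.7, 142, 89.0 and 142 CPM in venules (log2 -7.01 ± 1.21, adjusted p = 5.63e-05). Adam11, a metalloprotease-like membrane protein, had 1 count in all arterioles against 1449 in venules (ratio 1231, 95% counting interval 220 to 48640), and its adjusted p of 0.0287 rose above the threshold without each mouse, up to 0.117.

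The same comparison was made in the 6 operated groups, which share no mice with the healthy one. At 4 h it called 774 of 12440 genes after sham surgery (6.22%) and 986 of 12575 after CLP (7.84%). At 24 h it called 230 of 11975 after sham (1.92%) and 264 of 11645 after CLP (2.27%). At 72 h it called 249 of 11638 after sham (2.14%) and 154 of 11406 after CLP (1.35%). At 4 h the calls were divided between the vessels, with 326 after sham and 475 after CLP higher in arterioles. Later most were higher in venules, and those higher in arterioles numbered 52 and 34 at 24 h and 75 and 25 at 72 h after sham and CLP. The later arteriole libraries were the poorer ones: the median number of detected genes was 8506, 8036.5, 8433.5 and 7717 in arterioles of the 24 h sham, 24 h CLP, 72 h sham and 72 h CLP mice, against 11748.5 in healthy arterioles, and its part in the lower counts was not tested. Single mice mattered, since 414 were called at 4 h sham without mouse 4, 596 at 4 h CLP without mouse 3, 633 there without mouse 1, and 30, 44 and 70 at 72 h CLP without mouse 2, 3 and 4. Those higher in arterioles numbered 215, 202 and 169 at 4 h sham without mouse 1, 3 and 4, and 66 at 24 h CLP without mouse 1.

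Genes called in healthy mice recurred in the operated ones. Of the 303 higher in healthy arterioles 299 were tested at 4 h sham and 174 were called the same way, which is 57.4% of the healthy genes and 53.4% of that group's own, where 2.62% of all genes were called in that direction. Of the 209 higher in healthy venules 123 were called the same way there, 58.9% of the healthy and 27.5% of that group's, where 3.6% of all genes were called. At 4 h CLP 192 of the 303 and 119 of the 209 were called the same way, where 3.78% and 4.06% of all genes were called in these directions. At 24 h the numbers were 40 and 66 after sham (0.434% and 1.49% of all genes) and 28 and 48 after CLP (0.292% and 1.98%). At 72 h they were 58 and 37 after sham (0.644% and 1.5%) and 21 and 41 after CLP (0.219% and 1.13%). None of the 512 was called in the opposite direction in any of the 6 groups. Genes called the same way in all 6 included Cald1, Cytl1 and Mylk, higher in arterioles, and Atp1b1, Gpx3, Kap and mt-Nd1, higher in venules.

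Acta2 differed by 4.63 to 5.62 on the log2 scale in the operated groups against 5.24 in healthy mice and was called in all but sham 24 h (adjusted p = 0.105). Vwf was called only at sham 4 h (3.04, adjusted p = 0.0233) among the operated groups, with 2.06 (0.0587) at CLP 4 h and 1.72 to 3.44 later. Emcn, called in healthy mice, was at -1.41 (adjusted p = 0.103) at sham 4 h and at -1.13 (0.279) at CLP 4 h. Dcn was called in none of the groups (0.33 to 1.91). Kap, the tubule gene, differed by -2.28 to -4.64 in the operated groups against -1.2 in healthy mice, and mt-Nd1 by -0.88 to -1.74 against -0.77.

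**Figure D5:**
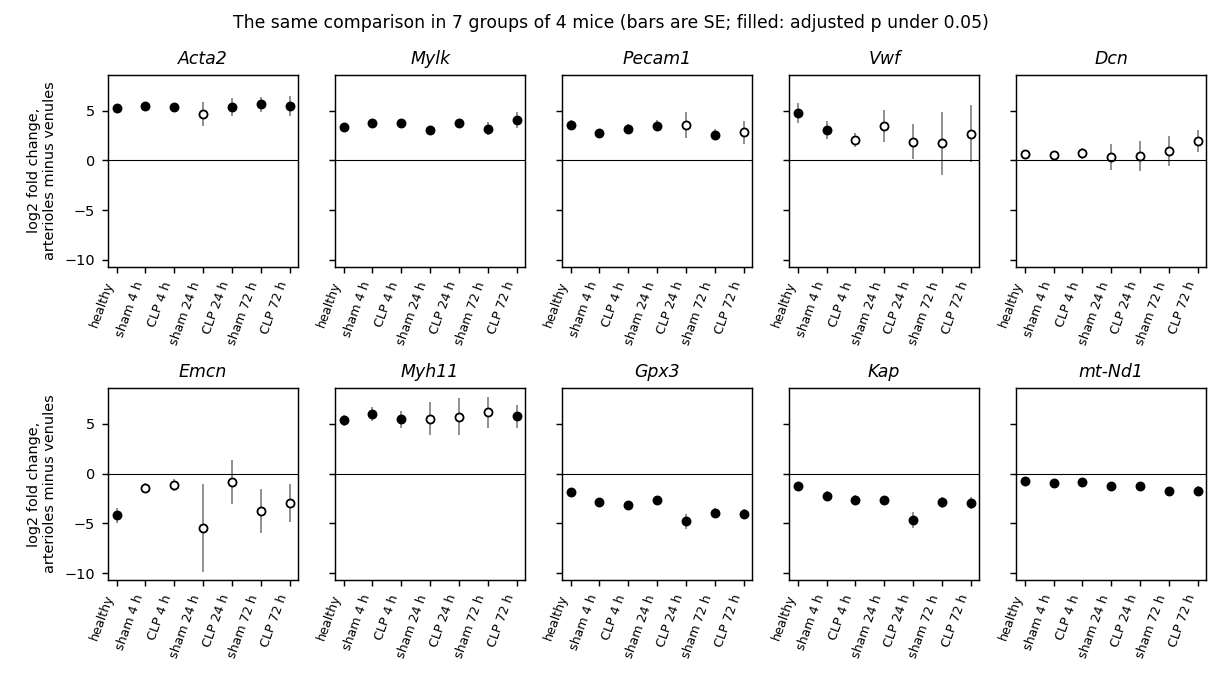
Log2 fold change of arterioles minus venules (y axis) for 10 genes in healthy mice and the 6 operated groups (x axis), 4 mice each; bars are standard errors and filled points have an adjusted p under 0.05. Acta2 stays between 4.63 and 5.62 and Mylk above 3 in each group, Dcn is filled in none, and Kap and Gpx3 are filled and negative in all 7.

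Whether the vessel difference itself changed was tested for sham 4 h against healthy mice as an interaction over 32 libraries. Of 14115 genes 5 passed (0.0354%), and 1011 had an unadjusted p under 0.05. Kctd17 changed from -7.01 in healthy mice to 0.73 after sham surgery (interaction 7.78 ± 1.57, adjusted p = 0.0176), its arterioles being at 90.3, 84.4, 76.7 and 226 CPM in sham mice. The other 4 are known from the proximal tubule. Cyp2d26, a cytochrome P450, averaged 101 CPM in arterioles and 167 CPM in venules of healthy mice and 3.25 and 311 CPM after sham (interaction -5.63 ± 1.08, adjusted p = 0.0161). Folr1, a folate receptor, averaged 124 and 335 CPM in healthy mice and 6.74 and 359 CPM after sham (-4.01 ± 0.79, adjusted p = 0.0161). Slc22a8, an organic anion carrier, and Aqp1, a water channel, changed by -3.46 ± 0.71 (adjusted p = 0.0182) and -3.17 ± 0.68 (adjusted p = 0.0332), and neither differed between the vessels in healthy mice beyond error (adjusted p = 0.692 and 0.971). Without healthy mouse 1 or sham mouse 3 only 2 genes passed. Acta2 (0.24 ± 0.38, adjusted p = 0.974) and Emcn (2.77 ± 0.90, adjusted p = 0.489) did not.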

How the data were processed

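Gene counts of 140 QuantSeq libraries were deposited by the authors in 1 table as raw counts for 34255 genes. Per the submitters' processing notes STAR 2.7, featureCounts, HTSeq 0.13 and SAMtools 1.9 were used, beside the quality tools MultiQC 1.7 and FastQC 0.11.8, with GRCm38.p6 and GRCm39 named as builds. The counter, the strand setting, the handling of duplicates and the build of the alignment are not given in the sources used here. Unless strand was used, reads of overlapping genes on opposite strands cannot be told apart. Of 199 named genes 20 have another gene's exon within the last 500 bases, among them Nos3, Ptgis, Slc34a1, Umod, Egfl7 and mt-Nd1. Reads shared between near-identical gene copies could also be split. Gene IDs were matched to GENCODE M21 (34185 of 34255 found), which gave names and GRCm38 positions. Groups, times and mouse numbers came from the labels. For the 20 healthy libraries the table itself gives 4 h where the labels give 0 h, and the labels were used.

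From the counts, edgeR 4.0.16 (with limma 3.58.1, R 4.3.3) fitted the 16 microdissected libraries of the 4 healthy mice, with TMM scaling, its filter on low counts by compartment, a robust quasi-likelihood fit and the mouse as a block. The contrast was arterioles minus venules, called at a Benjamini-Hochberg adjusted p under 0.05 over 12179 genes. Standard errors are the log2 fold change divided by the square root of F. CPM use the same scaling. The pairing comes from the mouse named in the labels. Across genes the correlation of same-mouse deviations was 0.025, 0, 0.023 and 0.017 for mice 1 to 4. For mouse 2 the correlation with another mouse was higher, at 0.008. The operated groups were fitted in the same way. Libraries held 6.12, 11.4, 8.82 and 6.48 M counts in arterioles and 9.04, 8.64, 4.64 and 8.43 M in venules. In counts of 0, an upper limit of 3 counts per library (about 0.48 CPM in arterioles and 0.4 CPM in venules) and all counting intervals cover counting error only, since no molecular identifiers were used. The methods were tested on simulated data.

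The members, gene lists and tests were chosen with earlier results of these data known. Named genes were the 4 given markers; the 12 largest folds in each direction and the 5 most abundant among called genes that pointed one way in 4 of 4 mice and reached 20 CPM; up to 5 called and 3 uncalled members of each list by abundance; and the genes of the interaction test. A few further list members were named after their values were seen. Some genes that the rule names are not reported here. Alternatives were fits of 8 libraries, fits without the block, DESeq2 1.42.0 and its size factors, library totals, limma-voom, other filters, exclusion of mitochondrial and haemoglobin genes, and leaving out each mouse. Glomeruli, capillaries and whole kidney are otherwise not analysed here.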

Additional observations from a re-analysis of the deposited data

Results flagged for a closer look

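In groups of 4 libraries, a value was singled out where its gap to the nearest other value took up more of the group's range than Dixon's 95% critical value for 4 values. That value lets about 1 in 20 groups pass by chance only where groups are independent and values are normally spread. The groups here share libraries and were not checked for a normal spread, so that rate is no measure for them. Of 170 such groups 15 passed. Among genes in arterioles these were Mgp in mouse 2 (10720 CPM), Dhh in mouse 1 (1.03 CPM), Kap in mouse 4 (12300 CPM), Slc12a3 in mouse 3 (126 CPM), Ren1 in mouse 2 (24.8 CPM) and Proc in mouse 4 (62.8 CPM). In venules they were Ptgis in mouse 2 (28.3 CPM) and mt-Nd1 in mouse 4 (31080 CPM). The venule library of mouse 3 had the fewest counts, 4.64 M.

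Summed marker lists gave the others. The arteriole library of mouse 2 stood apart for arterial endothelium (11840 CPM), neutrophils (231 CPM), the endothelial glycocalyx (4281 CPM) and the circadian clock (902 CPM). This library also had the lowest scaling factor, 0.571, and a low factor raises every CPM value of a library. In venules mouse 4 stood apart for the renin list (723 CPM) and mouse 2 for immediate early genes (653 CPM).

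Between healthy and sham 4 h mice the difference of arterioles from venules itself differed, by the interaction test in edgeR, for Cyp2d26 (-5.63, adjusted p = 0.0161), Folr1 (-4.01, 0.0161), Kctd17 (7.78, 0.0176), Slc22a8 (-3.46, 0.0182) and Aqp1 (-3.17, 0.0332).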

How the results depend on the processing

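Of 105 called genes examined by name, 40 were called in every alternative that tested them and none reversed. The calls lost numbered 40, 40, 40 and 26 without mouse 1, 2, 3 and 4, 16 with library totals and 17 with limma-voom. Without the mouse block the 16 libraries gave 562 calls, against 512 with it. With the replicate block the 8 libraries gave 414 calls, 130 of them higher in venules, and without the block 314, with 68 higher in venules. Library totals gave 197 genes higher in arterioles. DESeq2's test called 2489 genes, 1153 higher in arterioles and 1336 in venules. The causes were not tested. With 1 mouse left out the healthy comparison called 267 to 423 genes, 156 to 258 higher in arterioles and 93 to 165 in venules. The ranges were 414 to 546 (169 to 232 and 245 to 325) at sham 4 h, 596 to 717 (289 to 352 and 306 to 365) at CLP 4 h and 30 to 185 (8 to 29 and 22 to 156) at CLP 72 h. At CLP 24 h 28 to 66 genes were higher in arterioles. The interaction test called 12 genes without the mouse block and 2 to 6 with 1 mouse left out. Aqp1, not called in healthy mice, reversed to -0.068 in the 8 libraries with the block, -0.29 with library totals, -0.13 with limma-voom and -0.28 without mouse 1 (up to 0.16 with others left out). Emcn at CLP 24 h reversed to 0.12 without mouse 3 (-2.005 at the lowest). Depth limits genes with few counts, and the median count of a tested gene varied from 8 to 168 among arteriole libraries, with 8 in the library of most counts.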

Other observations

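The lists of blood and immune cell genes were short, and with 4.2% of all genes called a count of 0 on such short lists says little about them. Of 16 genes of macrophages and dendritic cells tested, 10 of erythrocytes and platelets, and 4 of lymphocytes, edgeR called none, and none of them had an unadjusted p under 0.05. DESeq2 called none either, and limma-voom called 1, an erythrocyte or platelet gene. The summed macrophage level was 1105 to 2090 CPM in arterioles and 1171 to 1904 CPM in venules. Among 10 leukocyte adhesion genes tested edgeR called none, 2 were under 0.05 before adjustment and 2 were called by DESeq2. Icam2 (2.96 ± 0.99, adjusted p = 0.0782) and Vcam1 (0.92 ± 1.07, adjusted p = 0.735) were among those that did not pass. Sele, the endothelial selectin that captures leukocytes, was below the filter, at a mean of 10.5 CPM in venules and 0.224 CPM in arterioles.

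Gkn3, a gastrokine found in arterial endothelium, was also below the filter, with a mean of 139 CPM in arterioles and 0.249 CPM in venules. Actb, the cytoskeletal actin often used to scale measurements, was at 20060, 30800, 14410 and 12920 CPM in arterioles and 4835, 6163, 4365 and 5845 CPM in venules (log2 1.88 ± 0.23, adjusted p = 1.58e-08; lost with limma-voom at 0.112). Its groups did not overlap.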
